A study of Homo sapiens with 2 samples.

Results

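Caveolae are flask-shaped pits of the plasma membrane. The peaks of open chromatin at 7 genes of caveolar proteins were compared between 2 ATAC-seq libraries. The genes were the caveolins CAV1 and CAV2, the cavins CAVIN1, CAVIN2 and CAVIN3, and EHD2 and PACSIN3, which act at caveolae but are neither caveolins nor cavins. They are 7 of the 19970 protein-coding genes of the autosomes and chromosome X. Peaks were taken when they overlapped the gene body or the 20 kb either side of any start site of GENCODE release 44 on hg38, which gave 40 peaks of the 74757 in the No gRNA list and 41 of the 75217 in the All gRNA list. The rule used gene names and positions only.

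SUM159 is a long-established triple negative breast cancer line of the mesenchymal, claudin-low kind. The lentiviral vector pLV-KRAB, which both populations carried, encodes Cas9 without cutting activity joined to the KRAB repressor domain (dCas9-KRAB). The No gRNA cells carried that vector with no targeting guide (the empty vector control), and the All gRNA cells carried it with all 4 guides against the promoter of ZEB1, a repressor of epithelial genes. ATAC-seq marks open chromatin because the transposase Tn5 inserts sequencing adapters where DNA is exposed. Each group held 1 library, so there was no replicate check, no test between conditions and no p-value, and each difference given is one between these libraries.

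Caveolins insert into the inner leaflet of the membrane as a hairpin and bind cholesterol. Cavins are soluble proteins that assemble on caveolin-rich membrane and complete the coat. Caveolae are abundant in endothelial, muscle, fat and mesenchymal cells, where they buffer membrane tension and take part in lipid uptake and signalling.

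At the main ZEB1 start site the No gRNA library held 2 peaks, with summit pileups of 25 and 27, and the All gRNA library held 0 peaks within 1 kb. The summit pileup is the number of counted read ends stacked at the highest point of a peak. The depth of the All gRNA library, read from the lowest background of each list, was 0.743 times that of the No gRNA library. Ratios below are All gRNA over No gRNA after division by this depth ratio, with a 95% exact conditional binomial interval. PCR reads without molecular identifiers are not independent molecules and both ends of a fragment can be counted, so the intervals cover counting error only. None of the 7 genes lies on chromosome 10, which carries ZEB1.

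Like the paired peaks of the whole lists, those of the 7 genes were lower in the All gRNA library more often than higher. The deepest differences lay in the CAV2 window, far upstream of the main CAV2 start site. A pair is a No gRNA and an All gRNA peak that overlap by at least 1 bp and overlap no other peak. Of 29 pairs, 19 were lower and 10 higher in All gRNA (65.5% lower), beside 58.1% lower over all 48041 pairs. The median log2 ratio was −0.27 (a ratio of 0.828) over the 29 pairs and −0.11 (0.928) over all pairs. Scaled by the median ratio of all pairs instead of by depth, which moves every log2 ratio by that 0.11, 18 of the 29 were lower and 11 higher, and the median log2 ratio was −0.16.

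At least 2-fold lower were 4 of the 29 pairs, beside 4.55 percent of all pairs, and all 4 also had an interval that excluded 1, beside 3.27 percent. None of the 29 was 2-fold higher, beside 4.06 percent of all pairs, and 2.44 percent with an interval that excluded 1. Of these 4 pairs 3 belong to CAV2 and 1 to PACSIN3. Without regard to size, 7 pairs were lower with an interval that excluded 1 and 0 were higher, beside 8.85% and 3.42% of all pairs. Under scaling by the median ratio these counts were 5 lower and 1 higher, and the shares over all pairs are given for depth scaling only. The call rested on pileups: with the authors' fold enrichment, which divides each summit by its own local background, 1 of the 4 pairs (CAV2 at 116443363) stayed past 2-fold, at a log2 ratio of −1.54, while the other CAV2 pairs had −0.86 and −0.93 and the PACSIN3 pair −0.96. The PACSIN3 pair at 47204850 passed 2-fold by this measure, at −1.14, with 0.538 (0.171 to 1.47) from pileups.

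**Figure D1:**
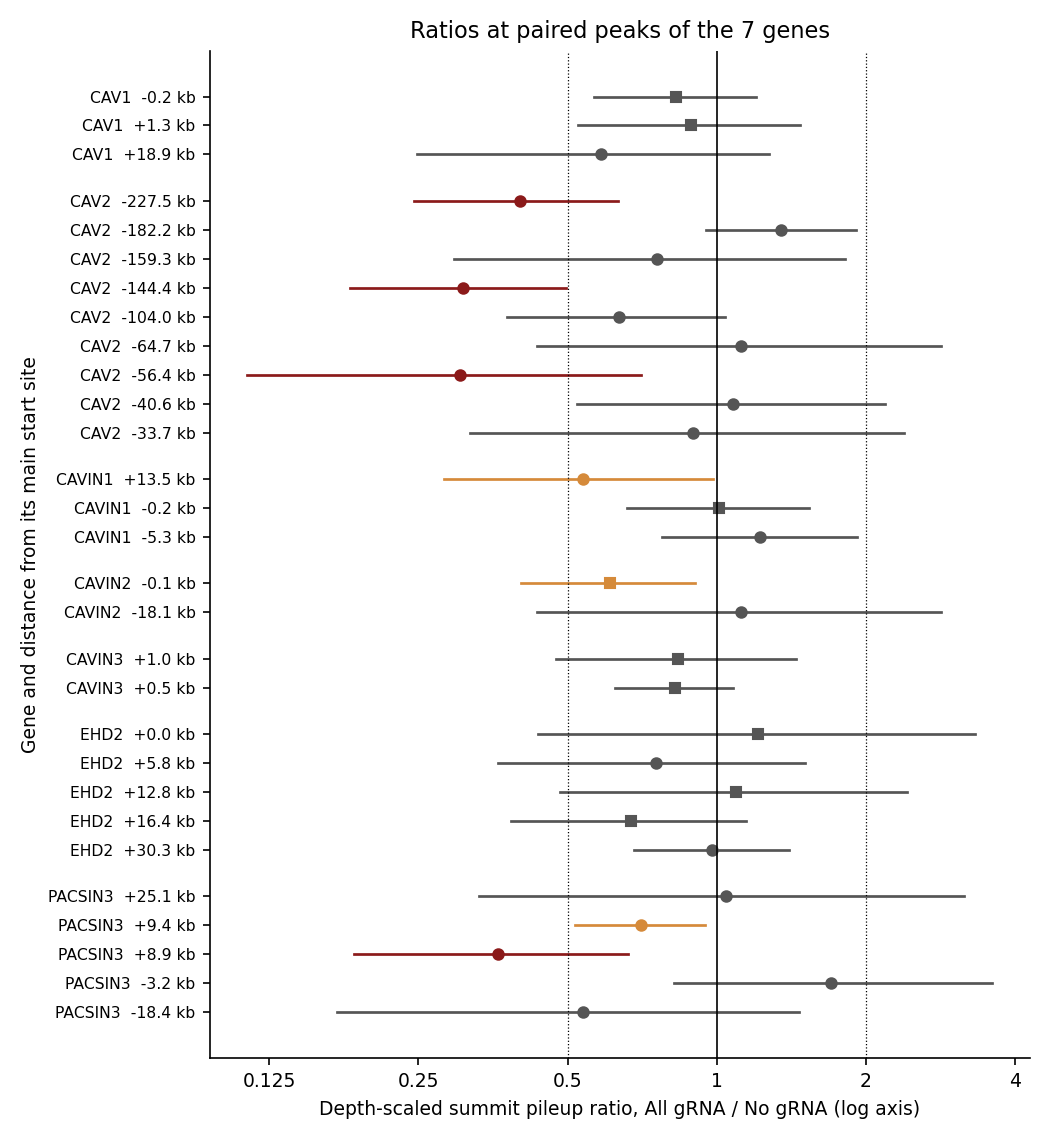
Depth-scaled ratio of summit pileups, All gRNA over No gRNA (horizontal log axis), for the 29 paired peaks of the 7 genes, labelled with the gene and the distance of the No gRNA summit from its main start site in kb. Points are ratios, lines are 95% intervals for counting error, squares lie within 1 kb of a start site of a member, and dotted lines mark 2-fold. Dark red marks the 4 pairs at least 2-fold lower, orange the other 3 with an interval that excludes 1. The dark red points are 3 of CAV2 and 1 of PACSIN3.

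The sequences at the summits of chosen peaks are given next, each 201 bp on the plus strand of hg38. Each is centred on the summit and clear of protein-coding exons. The PACSIN3 pairs at 47177539 and 47177071, whose intervals excluded 1, are not shown. Capitals mark matches to 5 motifs, each searched on both strands. The ZEB1-type E-box, which ZEB1 is known to bind, was spelled CAGGTG. The other E-box that was searched was spelled CAGCTG. The motif of AP-1, a factor of growth and stress signalling, was spelled TGAGTCA. For TEAD, the partner of YAP and TAZ, the letters were GGAATG. For the GC box, bound by SP factors in many promoters, they were GGGCGG. None of these motifs contains another. The first 3 are the CAV2 pairs at least 2-fold lower in All gRNA, and the next is the strongest CAV2 peak called in No gRNA only.
CAV2 chr7:116272159-116272359: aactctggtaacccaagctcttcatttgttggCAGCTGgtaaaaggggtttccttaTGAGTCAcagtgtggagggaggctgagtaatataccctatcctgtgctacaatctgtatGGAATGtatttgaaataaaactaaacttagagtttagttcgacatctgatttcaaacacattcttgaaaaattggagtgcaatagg
CAV2 chr7:116355229-116355429: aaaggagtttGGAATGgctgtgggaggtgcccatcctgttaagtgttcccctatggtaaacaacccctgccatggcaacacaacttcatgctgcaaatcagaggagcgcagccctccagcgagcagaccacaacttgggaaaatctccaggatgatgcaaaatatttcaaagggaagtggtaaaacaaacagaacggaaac
CAV2 chr7:116443263-116443463: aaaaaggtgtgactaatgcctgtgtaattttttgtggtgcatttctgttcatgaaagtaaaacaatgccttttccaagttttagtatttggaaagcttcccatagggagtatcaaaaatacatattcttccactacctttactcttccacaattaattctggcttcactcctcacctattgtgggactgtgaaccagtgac
CAV2 chr7:116426519-116426719: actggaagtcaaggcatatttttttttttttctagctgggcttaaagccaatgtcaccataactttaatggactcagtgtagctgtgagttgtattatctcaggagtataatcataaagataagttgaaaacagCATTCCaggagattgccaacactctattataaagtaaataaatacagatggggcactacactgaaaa

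For comparison, the next sequence is the one strong CAV2 pair that was not lower in All gRNA.
CAV2 chr7:116317460-116317660: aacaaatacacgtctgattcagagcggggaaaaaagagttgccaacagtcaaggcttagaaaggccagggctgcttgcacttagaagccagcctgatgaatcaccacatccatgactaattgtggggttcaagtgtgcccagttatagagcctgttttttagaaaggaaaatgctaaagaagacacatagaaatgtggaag

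The following are the promoter peaks of CAV1 and CAVIN2 and an intronic peak of CAVIN1, and the last 2 of these 3 had intervals below 1.
CAV1 chr7:116524764-116524964: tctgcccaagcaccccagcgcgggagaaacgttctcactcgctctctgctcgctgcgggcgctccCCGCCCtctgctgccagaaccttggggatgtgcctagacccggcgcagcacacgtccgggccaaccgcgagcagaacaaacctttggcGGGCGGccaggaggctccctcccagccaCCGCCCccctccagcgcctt
CAVIN2 chr2:191847114-191847314: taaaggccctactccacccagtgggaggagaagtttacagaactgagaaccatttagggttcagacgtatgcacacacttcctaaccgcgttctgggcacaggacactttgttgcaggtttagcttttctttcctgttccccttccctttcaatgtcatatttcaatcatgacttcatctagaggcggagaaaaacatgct
CAVIN1 chr17:42409658-42409858: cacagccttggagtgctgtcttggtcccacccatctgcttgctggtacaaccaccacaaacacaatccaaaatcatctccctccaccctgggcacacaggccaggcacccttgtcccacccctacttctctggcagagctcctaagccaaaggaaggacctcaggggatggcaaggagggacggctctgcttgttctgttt

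The last is a peak of the EHD2 window called in All gRNA only that held the ZEB1-type E-box. It is centred on the All gRNA summit, all others on No gRNA summits.
EHD2 chr19:47698260-47698460: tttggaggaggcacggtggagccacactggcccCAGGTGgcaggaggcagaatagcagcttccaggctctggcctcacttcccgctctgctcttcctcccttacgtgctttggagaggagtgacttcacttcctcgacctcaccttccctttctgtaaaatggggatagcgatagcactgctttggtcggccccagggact

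The ZEB1-type E-box was found in 1 of the 40 No gRNA windows of the 7 genes (2.5%), beside 11.6% of all windows at No gRNA summits, and in 2 of the 41 All gRNA windows (4.88%), beside 13.1%. Both All gRNA windows belong to EHD2 peaks without a partner, among them the one just shown, and the No gRNA window is the PACSIN3 peak at the ARFGAP2 start site. The AP-1 motif stood in 7 No gRNA windows (17.5%, beside 23.5% of all) and 9 All gRNA windows (21.95%, beside 24.3%). The TEAD motif stood in 9 No gRNA windows (22.5%, beside 14.6%) and 8 All gRNA windows (19.5%, beside 14.1%). The other E-box stood in 7 and 4 windows (17.5% and 9.76%, beside 12.4% and 12.0%), and the GC box in 8 and 10 (20% and 24.4%, beside 19.3% and 18.9%). These matches describe the letters of the windows and are not evidence of binding. The median GC content was 48.8% in the No gRNA windows of the 7 genes and 51.2% in their All gRNA windows, beside 48.3% and 47.8% over all peaks.

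CAV1 encodes caveolin-1, the main structural protein of caveolae outside muscle. In hg38 it spans chr7:116524994-116561179 on the plus strand (ENSG00000105974.13), with its main start site at 116525036. At the promoter, the peak with its summit at 116524864, 130 bp from the nearest CAV1 start site, had a No gRNA pileup of 78 and an All gRNA pileup of 48. The ratio was 0.828 (0.566 to 1.20), so the libraries did not differ there beyond counting error. The peak was 730 bp wide in No gRNA and 444 bp in All gRNA, a width ratio of 0.608. An exonic CAV1 peak at 116526329, 36 bp from a second start site, had pileups of 41 and 27, a ratio of 0.886 (0.524 to 1.48). An intronic peak at 116543964 had 23 and 10, a ratio of 0.585 (0.249 to 1.28). All 3 CAV1 pairs pointed down, each with an interval that includes 1. A further intronic peak at 116552927, with a pileup of 10, was called in No gRNA only.

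Between CAV2 and CAV1, in the intergenic stretch chr7:116511844-116512918 that belongs to the windows of both, the No gRNA library held 3 peaks with pileups of 16, 21 and 11, and the All gRNA library held 2 with pileups of 9 and 7. They overlapped each other in a chain and formed no pair. The ratio of the highest summits was 0.577 (0.233 to 1.31), within counting error. All peaks of the CAV1 window covered 2409 bp in No gRNA and 1684 bp in All gRNA, 69.9% of the No gRNA length. Over the 17517 protein-coding genes with No gRNA coverage the median was 89.9%, and CAV1 stood at the 18.0 percentile.

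CAV2 encodes caveolin-2, which needs caveolin-1 to reach the surface and form mixed oligomers with it. Its main start site lies at chr7:116499738 on the plus strand (ENSG00000105971.15), upstream of CAV1. GENCODE also annotates CAV2 transcripts that start as far upstream as 116287380, so the CAV2 window measured 252665 bp, at the 93.8 percentile of protein-coding genes (median 56370.5 bp). The peaks far upstream are counted under CAV2 for that reason, and they also lie in introns of the non-coding gene ENSG00000237813. The data do not say which gene, if any, these peaks act on.

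Near the main CAV2 start site the No gRNA library had peaks at 116499767 and 116500311, with pileups of 20 and 10, and the All gRNA library had 1 peak at 116500089 with a pileup of 11 that overlapped both. The ratio of the highest summits was 0.740 (0.320 to 1.62), within counting error. An exonic All gRNA peak at 116500814, with a pileup of 11, had no No gRNA partner.

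Far upstream of the main start site, some peaks were much lower in All gRNA and others were not. The strongest of these peaks in No gRNA, at 116355329 in a CAV2 intron 65416 bp from the nearest CAV2 start site, had a No gRNA pileup of 92 and an All gRNA pileup of 21. Its ratio was 0.307 (0.182 to 0.498). The peak at 116272259 had pileups of 84 and 25, a ratio of 0.401 (0.245 to 0.632). It lies outside the CAV2 body, 15121 bp from the nearest CAV2 start site, in introns of ENSG00000237813 and ENSG00000243243. The peak at 116443363, in a CAV2 intron, had 31 and 7, a ratio of 0.304 (0.113 to 0.703). These 3 pairs were the ones past 2-fold, and they remained past it with intervals that excluded 1 when scaled by the median ratio, at 0.331, 0.432 and 0.327 in the order given. From pileups the log2 ratio at 116355329 was −1.70. The recovered local background of that peak was 3.8 in No gRNA and 1.16 in All gRNA, beside 2.6 and 1 at 116272259. Peaks were called on each library alone, so this background came from the same library as the peak and is no independent measure.

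Another strong upstream peak was not lower. At 116317560 the pileup was 69 in both libraries, and after depth scaling the ratio was 1.35 (0.950 to 1.91), or 1.45 (1.02 to 2.05) under scaling by the median ratio. It lies in a CAV2 intron between the peaks at 116272259 and 116355329. The peak at 116395695 had pileups of 53 and 25, a ratio of 0.635 (0.378 to 1.04). The weaker pairs at 116340412, 116435044, 116459104 and 116466045 had ratios of 0.757, 1.12, 1.08 and 0.897, all within counting error. Of the 9 CAV2 pairs, 6 were lower and 3 higher in All gRNA.

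Called in No gRNA only were CAV2 intronic peaks at 116426619 (pileup 21), 116363926 (pileup 9) and 116433679 (pileup 9). The first was the strongest peak without a partner at any of the 7 genes, with a −log10 q of 22.6 at the 66.9 percentile of its list. Its pileup would be 15.6 at the All gRNA depth, where the lowest pileup called at that background or above was 4. All 5 No gRNA only and all 7 All gRNA only peaks of the 7 genes reached such a limit. It therefore does not set this peak apart. In All gRNA only there was an intronic CAV2 peak at 116315572 with a pileup of 18, next to the pair that was not lower. The CAV2 window was covered over 6682 bp by 17 peaks in No gRNA and over 5365 bp by 14 peaks in All gRNA, 80.3% of the No gRNA length, at the 32.0 percentile of genes.

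**Figure D2:**
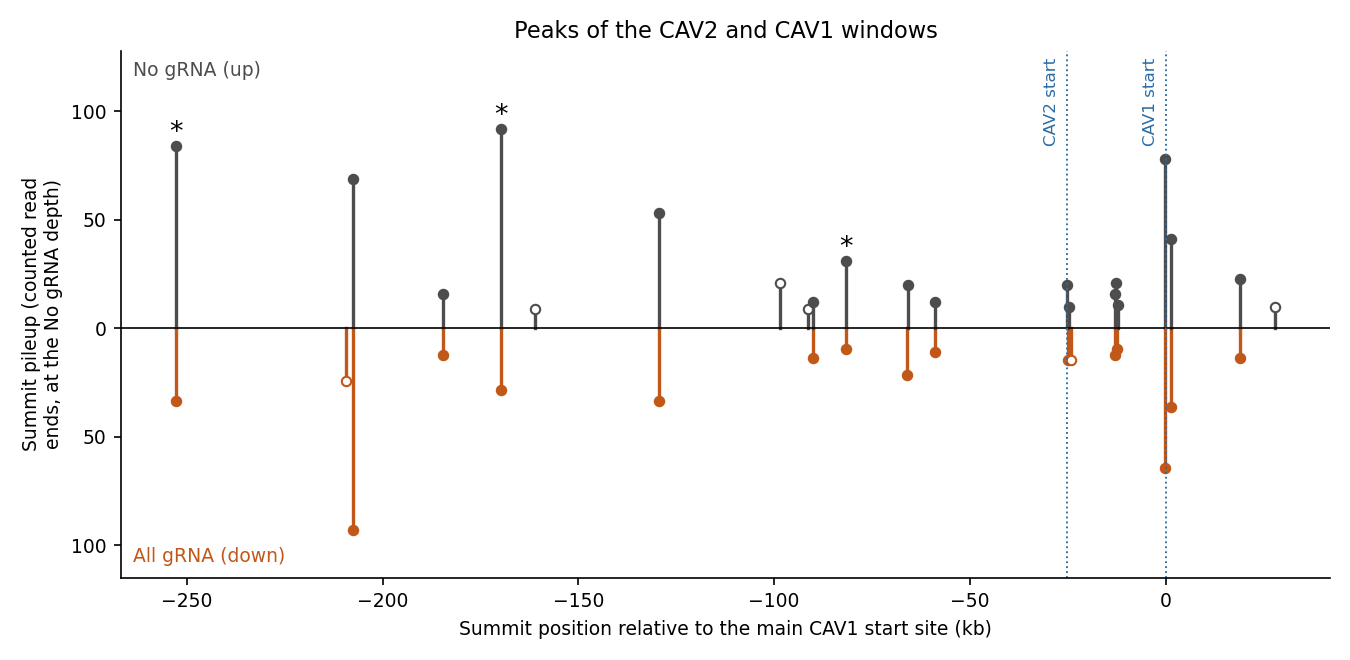
Summit pileups of all peaks in the CAV2 and CAV1 windows by distance of the summit from the main CAV1 start site in kb, No gRNA upwards and All gRNA downwards, the latter divided by the depth ratio of 0.743. Filled points overlap a peak of the other library and open points do not, asterisks mark the 3 pairs at least 2-fold lower in All gRNA, and dotted lines mark the main start sites. The marked peaks reach 84, 92 and 31 upwards and all lie upstream of the main CAV2 start site, while the peak with 69 in No gRNA reaches further down than up.

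Other genes with several such pairs were few. Of 16508 protein-coding genes with at least 1 pair, 11 had 3 or more pairs at least 2-fold lower, CAV2 included, and of 533 genes with 9 or more pairs, 5 did. A single such pair, as at PACSIN3, was common: 1506 of the 16508 genes (9.12%) had 1 or more. Of 2823 genes with 5 or more pairs, 638 did. Gene windows differ in length and overlap, so this is a description. The pairs within 1 Mb of the CAV genes and outside their windows had a median log2 ratio of −0.08 (29 pairs), with 0 at least 2-fold lower and 2 at least 2-fold higher, beside −0.09 over the 2563 pairs of chromosome 7. In the strongest of 5 equal classes of pairs, ranked by mean pileup, which holds the pairs at 116272259 and 116355329, 1.58 percent were at least 2-fold lower with an interval that excluded 1. The share was 6.38% in the middle class, which holds the CAV2 pair at 116443363. It was 5.08% in the next stronger one, which holds the PACSIN3 pair at 47177539. In the weakest class it was 0.207%, and in the second weakest 3.14%.

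CAVIN1 encodes cavin-1, without which caveolae do not form. It spans chr17:42402449-42423256 on the minus strand (ENSG00000177469.13). The promoter peak at 42423416, 160 bp upstream of the start site, had a No gRNA pileup of 56 and an All gRNA pileup of 42, a ratio of 1.01 (0.660 to 1.53). A further upstream peak at 42428537 had 44 and 40, a ratio of 1.22 (0.777 to 1.92). Neither differed beyond counting error. In the CAVIN1 intron the peak at 42409758 had pileups of 40 and 16, a ratio of 0.538 (0.281 to 0.983), with widths of 598 and 275 bp. Its interval included 1 under scaling by the median ratio, at 0.580 (0.303 to 1.06). An intronic peak at 42422262, with a pileup of 18, had no All gRNA partner, and one at 42407745, with a pileup of 14, had no No gRNA partner.

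CAVIN2 encodes cavin-2, a phosphatidylserine-binding coat protein that takes part in shaping caveolae. It spans chr2:191834310-191847088 on the minus strand (ENSG00000168497.5). The peak at its start site, with the No gRNA summit at 191847214, 126 bp upstream and in an intron of CAVIN2-AS1, had a No gRNA pileup of 84 and an All gRNA pileup of 38. The ratio was 0.609 (0.404 to 0.903), and 0.656 (0.435 to 0.973) under scaling by the median ratio. It was the lowest ratio among the 9 pairs within 1 kb of a start site of the 7 genes. The summits lay 113 bp apart, the widest gap of the 29 pairs, and the peak was slightly wider in All gRNA (664 bp) than in No gRNA (607 bp). A distal pair at 191865198 had pileups of 12 and 10, a ratio of 1.12 (0.434 to 2.83). A weak All gRNA peak at 191862552, with a pileup of 9, had no partner. Covered length was 903 bp in No gRNA and 1285 bp in All gRNA, 142% of the No gRNA length.

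CAVIN3 encodes cavin-3, a cavin that also binds protein kinase C delta. It spans chr11:6318946-6320532 on the minus strand (ENSG00000170955.10). Its promoter peak, with the summit at 6319954 in a CAVIN3 exon, was the highest of any peak of the 7 genes, with a No gRNA pileup of 144 and an All gRNA pileup of 88. The ratio was 0.822 (0.623 to 1.08), within counting error and beside a median of 0.854 in the strongest of 5 classes of all pairs. The neighbouring exonic peak at 6319486 had 37 and 23, a ratio of 0.837 (0.475 to 1.45). At the start sites of both CAV1 and CAVIN3, then, each library held a strong peak, and the intervals of the ratios included 1.

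EHD2 encodes an ATPase that sits at the neck of caveolae and holds them at the surface. It spans chr19:47713422-47743134 on the plus strand (ENSG00000024422.12). Its main start site had a weak peak in both libraries, with pileups of 10 and 9 and a ratio of 1.21 (0.435 to 3.32). Peaks near internal start sites had pileups of 16 and 13 at 47726265, a ratio of 1.09 (0.484 to 2.42), and of 44 and 22 at 47729810, a ratio of 0.673 (0.384 to 1.15). An intronic peak at 47719211 had 25 and 14, a ratio of 0.754 (0.362 to 1.51). The strongest EHD2 peak, downstream of the gene at 47743687, had 77 and 56, a ratio of 0.979 (0.681 to 1.40). No EHD2 pair differed beyond counting error.

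EHD2 was the gene with the most peaks called in All gRNA only, at 47698360 (pileup 9), 47707624 (pileup 7) and 47723742 (pileup 17). The first lies in an intron of BICRA, the second in an intron of ENSG00000268746 and the third in an intron of EHD2. There were 5 peaks over 2141 bp in No gRNA and 8 over 2870 bp in All gRNA, 134% of the No gRNA length, at the 92.7 percentile of genes. CAVIN2 and EHD2 were the members with more covered length in All gRNA.

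PACSIN3 encodes an F-BAR protein that bends membranes and binds dynamin. It spans chr11:47177522-47186443 on the minus strand (ENSG00000165912.16), and its 3′ end lies beside the start site of ARFGAP2, which encodes an ADP-ribosylation factor GTPase-activating protein. The peak at 47177539, at that 3′ end and 414 bp from the ARFGAP2 start site, had a No gRNA pileup of 52 and an All gRNA pileup of 14. Its ratio was 0.362 (0.185 to 0.663), and its width was 328 bp in No gRNA and 203 bp in All gRNA. The main ARFGAP2 promoter peak at 47177071, in an ARFGAP2 exon, had 132 and 69, a ratio of 0.703 (0.518 to 0.948), or 0.758 (0.558 to 1.02) under scaling by the median ratio. The summits lie 8895 and 9363 bp from the main PACSIN3 start site, and 1686 and 2154 bp from the nearest one. The second belongs to the PACSIN3 window only by distance. From the authors' folds the log2 ratio of the second was −0.07 in place of −0.51.

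At the PACSIN3 start site the No gRNA library had a peak at 47186579 with a pileup of 30, which overlapped 2 All gRNA peaks with pileups of 19 and 8. The ratio of the highest summits was 0.852 (0.453 to 1.56). An upstream peak at 47189621 had 15 and 19, a ratio of 1.70 (0.821 to 3.60), the highest of the 29 pairs. The pairs at 47161307, in a CSTPP1 exon, and at 47204850 had ratios of 1.05 (0.331 to 3.16) and 0.538 (0.171 to 1.47). Away from the ARFGAP2 promoter, no PACSIN3 peak differed beyond counting error.

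Peaks without a partner made up a smaller share at the 7 genes than over the lists, with intervals that include the share over the lists. In No gRNA they were 5 of 40 (12.5%, exact 95% interval 4.19 to 26.8), beside 24.7 percent of the list. In All gRNA they were 7 of 41 (17.1%, 7.15 to 32.1), beside 23.8 percent. Neighbouring peaks are not independent, so these intervals are too narrow. Another 6 No gRNA and 5 All gRNA peaks overlapped peaks of the other library without forming a 1-to-1 pair.

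Peak widths followed the lists as a whole. Of the 29 pairs, 21 were narrower and 8 wider in All gRNA, with medians of 330 bp and 310 bp. The median width ratio was 0.912, beside 0.946 over all pairs, of which 60.7% were narrower. Together the windows of the 7 genes were covered over 16398 bp in No gRNA and 14853 bp in All gRNA, 90.6%, beside the median of 89.9% over genes, of which 68.7% were covered less in All gRNA.

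**Figure D3:**
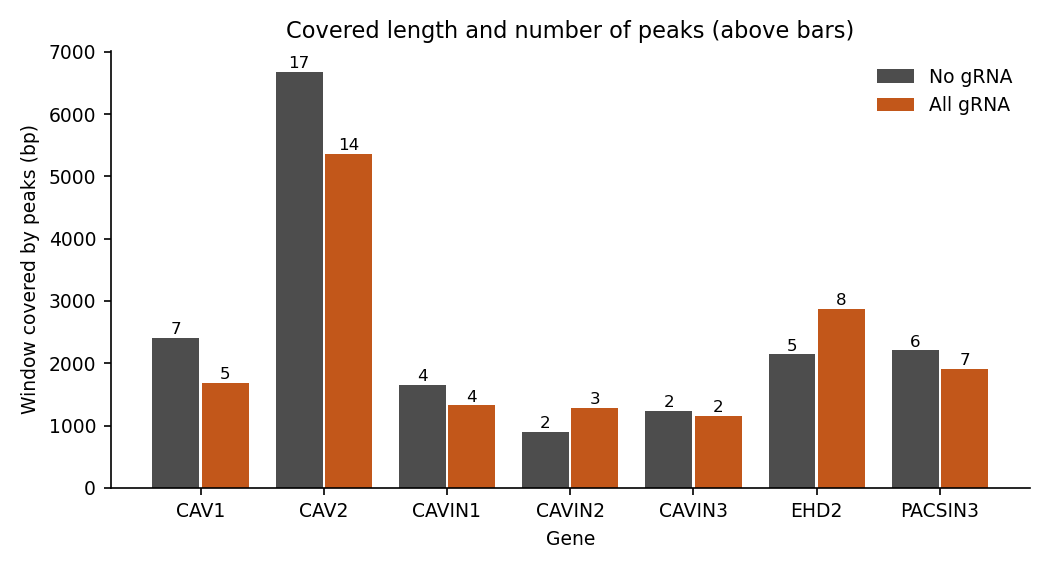
Length of each gene's window covered by peaks in bp, No gRNA in grey and All gRNA in orange, with the number of peaks above each bar. The All gRNA bar is lower for CAV1, CAV2, CAVIN1, CAVIN3 and PACSIN3 and higher for CAVIN2 and EHD2. Peaks in the stretch between CAV2 and CAV1 count for both.

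The ratio of a pair moved with the strength of its peaks, and the members were read against pairs of like strength. Over all pairs the median log2 ratio was 0.07 in the weakest of the 5 classes and −0.23 in the strongest. For the members it was 0.12 in the weakest class (6 pairs) and −0.28 in the strongest (9 pairs), with −0.40, −0.15 and −0.57 in the classes between (3, 4 and 7 pairs), where all pairs had 0.01, −0.08 and −0.17. The 9 pairs within 1 kb of a start site had a median log2 ratio of −0.26, and the other 20 had −0.40. Of these, 6 and 13 were lower.

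RefSeq promoter sequences of GRCh38.p14 were matched by symbol for 4 of the 7 genes: CAV1, CAV2, CAVIN2 and EHD2. Each covers the bases around a start site, mostly upstream of it. The first CAV2 promoter held 6 GC boxes and 1 CAGCTG E-box at a GC content of 82.7%, the first CAV1 promoter 3 GC boxes at 62.3%, and the EHD2 promoter 1 at 71.0%. The CAVIN2 promoter, at 49.3%, held 0 GC boxes, 1 such E-box and 1 TEAD motif. None of the 4 held the ZEB1-type E-box or the AP-1 motif. Over 35116 promoters 45.0% held a GC box, 20.6% the ZEB1-type E-box, 17.9% the other E-box, 14.0% the TEAD motif and 4.95% the AP-1 motif.

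Genes related to the 7 were measured in the same windows. The paralogs CAV3, CAVIN4, EHD1, EHD3, EHD4, PACSIN1 and PACSIN2 had 33 pairs, 19 lower and 14 higher, with a median log2 ratio of −0.12. Past 2-fold with an interval that excluded 1 were 1 lower and 2 higher. The lower pair was an EHD4 intronic peak at 41930863 on chromosome 15, with pileups of 55 and 18 and a ratio of 0.440 (0.243 to 0.762), while another EHD4 intronic peak at 41940860 had 21 and 34 and a ratio of 2.18 (1.23 to 3.95). A PACSIN2 intronic peak at 42940335 on chromosome 22 had 8 and 16, a ratio of 2.69 (1.09 to 7.26). PACSIN1 had a weak All gRNA only peak (pileup 7) 99 bp from a start site.

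The known partners of caveolar proteins DNM2, FLNA, FLOT1, FLOT2, NOS3, ROR1 and SRC had 28 pairs, 20 lower and 8 higher, with a median log2 ratio of −0.22. At the start site of ROR1, a receptor tyrosine kinase-like protein that binds caveolar proteins, the peak at 63774036 on chromosome 1 had pileups of 105 and 35, a ratio of 0.449 (0.297 to 0.663). A ROR1 intronic peak at 63868458 was higher in All gRNA, with 14 and 40 and a ratio of 3.84 (2.05 to 7.65). An intronic peak of DNM2, which encodes dynamin-2, the GTPase that cuts membrane necks, at 10749121 on chromosome 19 had 21 and 5, a ratio of 0.320 (0.0944 to 0.873). FLOT2, a flotillin of other membrane domains, had an intronic All gRNA only peak at 28897093 on chromosome 17. Its pileup was 21, and it lay 495 bp from the nearest FLOT2 start site.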

How the data were processed

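ATAC-seq was analysed in 2 libraries of SUM159 cells, No gRNA and All gRNA, 1 per group. Per the study's methods, the authors used fastp for trimming, bowtie2 for alignment to hg38 and samtools for duplicate removal, discarded reads of the mitochondrial genome and of an exclusion list, and ran MACS2 on each library alone (stated extension 150 bp). Tool versions were not given in the sources used here. The deposited lists hold a score, which was not used, a fold enrichment (a ratio), the caller's −log10 p and −log10 q, and the deposited offset of the summit.

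The files give no library totals. Whole-number summit pileups were solved for 100% of peaks from the deposited fold, (pileup + 1) / (background + 1), and the Poisson −log10 p. The lowest backgrounds, 0.651816 (No gRNA) and 0.484375 (All gRNA), gave the depth ratio. The procedure was tested on simulated data. Low peaks are least precise: the lowest pileup of any peak was 5 in No gRNA and 4 in All gRNA. The build was checked by chromosome lengths. Python 3.11.15, numpy 2.4.6, scipy 1.17.1 and pandas 2.3.3 were used.

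The members, the related genes and the rules were chosen with earlier results of these data known. All 7 members are named. The related genes are all listed, and values are given for one when a pair was past 2-fold with an interval that excluded 1, when it had a peak within 1000 bp of a start site in one library only, or when it had no peak. Other genes are named only where a member peak lies within 1000 bp of their start site, and those of other annotations are given as location; BICRA, CSTPP1, CAVIN2-AS1 and the non-coding genes are so named. Alternatives covered windows, overlap rules, thresholds, scaling and fold limits. The highest summit of each cluster of overlapping peaks, the list without the CAV2 window and the scaling of related genes were added after seeing the data.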

Additional observations from a re-analysis of the deposited data

How the results depend on the processing

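Of 158 values recomputed under alternatives, 123 moved by less than the limit set for each and 35 moved more. The log2 ratio of a single pair changed sign in 18 of 87 values, 8 of them without depth scaling, 9 with the authors' folds and 1 with scaling by the median ratio. These belong to 12 pairs whose intervals include 1, none with a log2 ratio above 0.29 in size, and the 7 pairs with an interval that excludes 1 kept their direction under these 3 settings. No paired analysis was possible because the groups were single libraries, and for the same reason no replicate could be left out. The window rule decided how many peaks were counted. With only peaks both in the gene body and within 20 kb, 17 No gRNA and 19 All gRNA peaks covered 5896 and 4927 bp, with 1 and 3 lacking a partner. Within 4 kb of a start site they were 16 and 17, covering 7128 and 6394 bp, with 1 and 2 lacking a partner, and within 20 kb of the canonical start there were 25 No gRNA peaks over 10501 bp and 29 All gRNA peaks over 10081 bp, with 1 and 6 lacking a partner. These follow from the smaller windows. The 3 CAV2 pairs at least 2-fold lower lie outside each of these smaller windows, so their count under CAV2 depends on the wider rule. The PACSIN3 pair at 47177539 lies inside each of them. A minimum −log10 q of 10 in both lists left 17 All gRNA peaks over 8126 bp and gave 11 No gRNA and 1 All gRNA peaks without a partner; asked of the counted list alone it gave 1 and 0, so weak peaks of the other list account for the difference. A minimum of 5 in both gave 10 No gRNA and 5 All gRNA peaks without a partner, an overlap of 50% of both peaks 9 and 10, and summits within 150 bp 8 and 9.

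Without depth scaling the median log2 ratio was −0.70, 10 pairs were at least 2-fold lower, 9 of them with an interval that excluded 1, and the related genes had 6 lower and 1 higher, since the All gRNA library was shallower. From the authors' folds 2 pairs were at least 2-fold lower. At 1.5-fold 9 were lower and 1 higher. Without the CAV2 window the median log2 ratio was −0.26, and with the highest summit of each cluster −0.28, both added after seeing the data. Low pileups limit the weak peaks: at a pileup of 10 against 9 the interval of the EHD2 start-site ratio spans 0.435 to 3.32.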
